A study of Arabidopsis thaliana with 24 samples.

Results

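The genes described here are 7 Arabidopsis thaliana genes for coat proteins of oil bodies, chosen by identifier from the 28775 genes of the count tables. They are 5 oleosins, OLEO1 (AT4G25140), OLEO2 (AT5G40420), OLEO3 (AT5G51210), OLEO4 (AT3G27660) and OLEO5 (AT3G01570), and 2 caleosins, CLO1 (AT4G26740) and RD20 (AT2G33380). Oil bodies are droplets of triacylglycerol, the storage fat that seeds use at germination, wrapped in a single layer of phospholipid. Oleosins are small hairpin proteins that coat the droplet and keep droplets from fusing, and caleosins are calcium-binding coat proteins with peroxygenase activity. OLEO1 to OLEO5 and CLO1 are known as genes of the maturing seed, whereas RD20 is known from leaves and from drought, salt and abscisic acid (ABA). ABA is the plant hormone of seed maturation and of water stress.

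The 2 genotypes were Col-0 (wildtype) and dxo1, a mutant whose allele the labels do not specify. The DXO1 protein is known for taking NAD caps off transcripts. All plants were 12 days old and grown on 1/2 MS medium with 16 h of light and 8 h of dark, either in normal condition (NT) or with ABA at a dose and for a time that the labels do not state. Each of the 4 combinations was sequenced as total RNA, as RNA captured through a 5′ NAD cap (NAD), and by GMUCT, which reads uncapped and cleaved transcripts, with 2 replicates in each of 12 groups. A GMUCT level depends both on how much of a transcript is present and on how much of it is uncapped or cut. The labels name the material as seedling and as bud. Green-seedling markers summed to between 15164 and 24807 CPM in the GMUCT libraries with none of 10 at 0, whereas 8 floral-organ markers summed to 1.13 to 6.91 CPM, with 1 to 6 of the 8 at 0. CPM is a gene's count per 1000000 reads in genes, with library totals adjusted by TMM (trimmed mean of M values).

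Depth set what could be seen. GMUCT libraries held 5793714 to 13940464 reads in genes, of which 95.7% to 96.7% lay in protein-coding genes. NAD libraries held 750596 to 1526203 reads and total RNA libraries 878113 to 2027552 reads, with 2.17% to 17.7% and 12.7% to 26.3% in protein-coding genes. The 7 genes together had 27 to 11059 reads in a GMUCT library, but 0 to 58 in a total RNA library and 0 to 41 in a NAD library. Replicate 1 of Col-0 ABA in the NAD assay stood apart, with the lowest protein-coding share. AT4G17620, the DXO1 gene, kept 25.5 and 30.3 CPM in Col-0 NT, 30.6 and 32.3 in Col-0 ABA, 18.1 and 21.5 in dxo1 NT and 15.7 and 18.9 in dxo1 ABA by GMUCT. The dxo1 libraries thus lay below the Col-0 libraries in both conditions, and these counts cover the gene as a whole, so they cannot tell a working transcript from a broken one.

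The stretch of 250 bases before the annotated start is shown for the oleosin with the highest GMUCT level, OLEO1, for OLEO3, whose ABA rise was called in Col-0 and not in dxo1, and for RD20, which was called in neither. Sequences run 5′ to 3′ on the gene's strand and are from the RefSeq genome, build TAIR10.1: OLEO1 at chr4:12900180-12900429 (plus strand), OLEO3 at chr5:20819818-20820067 (plus strand) and RD20 at chr2:14146556-14146805 (minus strand). None of these 3 windows overlaps another annotated gene. Capitals mark ACGTG, the core of the ABA-responsive element, and CATGCA, the core of the RY element of seed promoters, on either strand.
OLEO1: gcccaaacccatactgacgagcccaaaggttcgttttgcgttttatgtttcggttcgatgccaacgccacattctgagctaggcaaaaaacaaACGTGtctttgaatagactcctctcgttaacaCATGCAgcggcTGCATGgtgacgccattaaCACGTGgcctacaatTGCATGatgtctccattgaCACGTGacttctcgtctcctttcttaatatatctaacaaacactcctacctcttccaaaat
OLEO3: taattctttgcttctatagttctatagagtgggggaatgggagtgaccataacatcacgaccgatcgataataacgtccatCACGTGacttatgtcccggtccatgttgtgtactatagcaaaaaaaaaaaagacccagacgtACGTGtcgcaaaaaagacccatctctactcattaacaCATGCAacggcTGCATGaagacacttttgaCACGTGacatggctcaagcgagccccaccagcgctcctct
RD20: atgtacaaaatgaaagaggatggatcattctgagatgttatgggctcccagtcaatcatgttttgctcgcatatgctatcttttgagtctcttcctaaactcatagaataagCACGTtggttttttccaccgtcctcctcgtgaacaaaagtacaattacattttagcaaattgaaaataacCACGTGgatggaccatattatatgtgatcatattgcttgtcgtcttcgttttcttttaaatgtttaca

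Matches were counted from 250 bases before to 50 bases after the start, on both strands, among 27443 annotated promoters of that length. ACGTG occurred at least once in 26.7% of promoters and CATGCA in 9.72%. The palindrome CACGTG, which holds ACGTG on both strands, occurred in 7.68%. OLEO1 held 5 ACGTG and 3 CATGCA matches, and OLEO3 held 5 and 2. OLEO5 held 2 and 1, and CLO1 held 1 of each. OLEO4 held no ACGTG in this window and 2 CATGCA, which overlap, while RD20 held 5 ACGTG, of which 3 lay before the start, and no CATGCA. The 5 seed-type genes described thus matched the RY core at least once, and RD20 did not. A match is a description of letters and not evidence of a site.

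**Figure D1:**
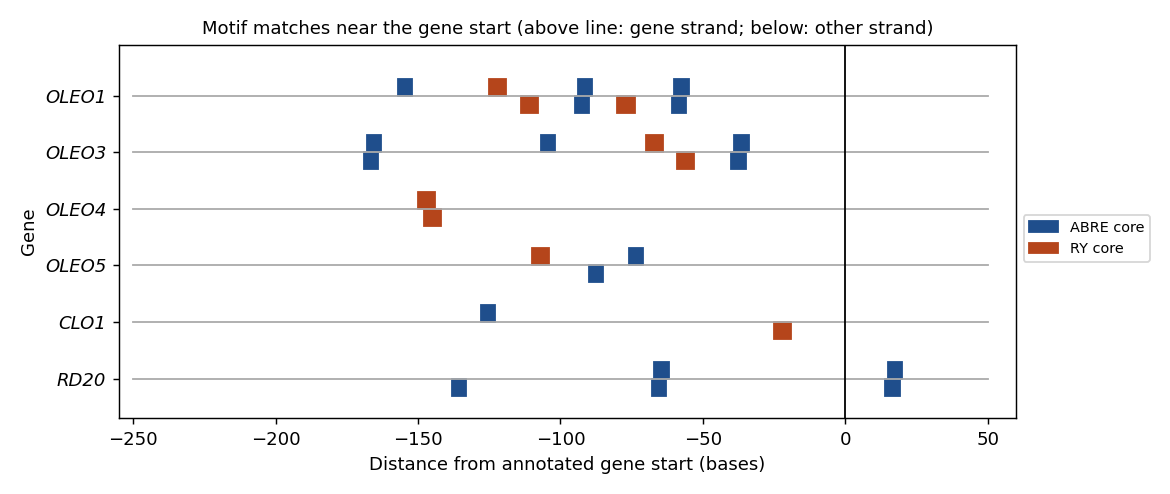
Matches of ACGTG (blue, ABRE core) and CATGCA (red, RY core) near the start of 6 of the genes; the x axis is the distance from the annotated start in bases, with boxes above the line on the gene's strand and below it on the other strand. OLEO4 has red boxes alone, and RD20 has blue boxes alone.

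By GMUCT, ABA raised the oil-body coat genes of the seed from near background to high levels in Col-0. OLEO1, a seed oleosin, stood at 0.782 and 1.11 CPM in Col-0 NT and at 1132 and 1277 CPM in Col-0 ABA. In dxo1 it stood at 0.601 and 0.267 CPM in NT and at 176 and 115 CPM in ABA. The treated libraries of each genotype lay far above the untreated ones, and the dxo1 ABA libraries lay below both Col-0 ABA libraries. The log2 fold change with ABA was 10.32 ± 0.32 in Col-0 (SE, n = 2, adjusted p = 3.73e-15) and 8.35 ± 0.32 in dxo1 (adjusted p = 2.93e-13).

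OLEO2, also a seed oleosin, rose from 0.261 and 0.111 CPM in Col-0 NT to 676 and 568 CPM with ABA. In dxo1 it went from 0.601 and 0.267 CPM to 78.5 and 68.5 CPM. The NT values rest on 1 to 9 reads a library, and no treated library overlapped an untreated one. Its log2 fold change was 11.55 ± 0.32 in Col-0 (adjusted p = 1.41e-15) and 7.36 ± 0.28 in dxo1 (adjusted p = 2.93e-13).

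OLEO5, a less abundant oleosin, rose from 0.608 and 0.334 CPM to 76.3 and 66.0 CPM in Col-0. In dxo1 it rose from 0.334 and 0.802 CPM to 9.85 and 10.6 CPM. The treated and untreated libraries were apart in both genotypes, by a log2 fold change of 7.16 ± 0.30 in Col-0 (adjusted p = 4.16e-13) and 4.14 ± 0.31 in dxo1 (adjusted p = 8.07e-09).

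OLEO3 and OLEO4, the rarer oleosins, stood below OLEO1, OLEO2 and OLEO5 in the ABA libraries of both genotypes. OLEO3 had 2 and 0 reads in Col-0 NT and 25 and 29 with ABA, which is a ratio of 51.1 after scaling, with a 95% counting interval of 13.5 to 433. In dxo1 it had 1 and 2 reads in NT and 1 and 3 with ABA. OLEO4 had 2 and 3 reads in Col-0 NT and 38 and 34 with ABA, against 4 and 3 and then 2 and 4 in dxo1. Both were called in Col-0, OLEO3 at 5.52 ± 0.74 (adjusted p = 1.43e-05) and OLEO4 at 4.69 ± 0.55 (adjusted p = 2.88e-06). In dxo1, OLEO3 stood at 0.95 ± 1.14 (adjusted p = 0.748) and OLEO4 at 0.38 ± 0.82 (adjusted p = 0.874), and at 1 to 4 reads a library a small or moderate change was not detectable. Both genes passed the filter on low counts through Col-0 ABA alone.

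Of the 2 caleosins, 1 was called. CLO1, the seed caleosin, had 2 and 1 reads in Col-0 NT and 321 and 401 with ABA (56.7 and 77.6 CPM), 455 times as many after scaling (95% counting interval 155 to 2214). In dxo1 it had 1 read in each NT library and 92 and 91 with ABA (10.4 and 8.59 CPM), 141 times as many (38.5 to 1174). It was called in both genotypes, at 8.72 ± 0.36 in Col-0 (adjusted p = 2.59e-13) and 6.90 ± 0.45 in dxo1 (adjusted p = 7.92e-10).

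RD20, the caleosin known from stressed leaves, stood at 1.04 and 1.00 CPM in Col-0 NT and at 1.06 and 3.68 CPM in Col-0 ABA. In dxo1 it stood at 0.868 and 0.334 CPM in NT and at 1.70 and 2.55 CPM with ABA. Col-0 treated libraries spanned from the untreated level to above it, and the dxo1 treated libraries lay above the untreated ones. Neither change passed, at 1.18 ± 0.61 in Col-0 (adjusted p = 0.163) and 1.81 ± 0.57 in dxo1 (adjusted p = 0.0596). The Col-0 value reached 1.83 (adjusted p = 0.0404) without Col-0 ABA replicate 1 and dropped to 0.041 (adjusted p = 0.977) without replicate 2. The dxo1 value passed without a filter on low counts (adjusted p = 0.0127) and in a fit of those groups alone (adjusted p = 0.0354).

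**Figure D2:**
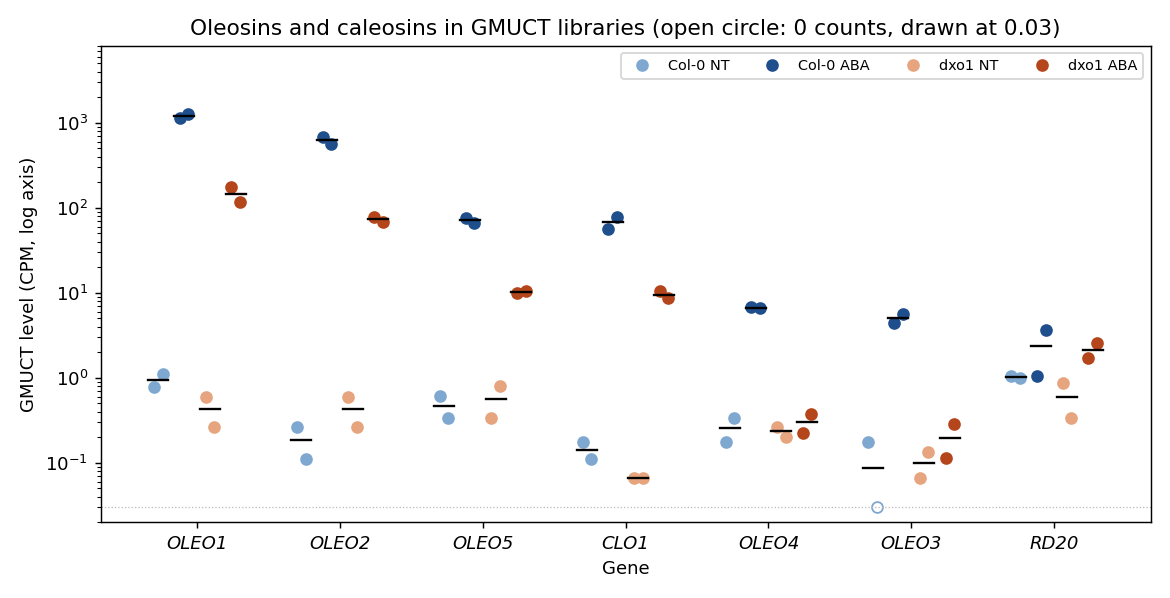
GMUCT level of each gene (CPM, log axis) in the 8 libraries; points are libraries, short black lines the mean of 2, colours the groups, and the open circle a library with 0 reads. For OLEO1, OLEO2, OLEO5 and CLO1 the Col-0 ABA points lie highest and the dxo1 ABA points between them and the untreated points, while RD20 shows no such step.

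Counted over the set, 6 of the 7 genes rose with ABA in Col-0 by GMUCT and 4 of 7 in dxo1. All 7 were among the 19644 genes tested, of which 26.7% were called in either direction in Col-0 and 7.68% in dxo1. The median log2 fold change over the 7 was 7.16 in Col-0 and 4.14 in dxo1, against -0.01 and -0.03 over all genes tested. All 7 passed the filter on low counts through treated libraries, so the counts and medians over them are a description and not support.

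Levels were compared between genes per kilobase of exon. In Col-0 ABA by GMUCT, OLEO1 stood highest at 1326 ± 112 CPM per kb (SD, n = 2), ahead of OLEO2 at 673 ± 82.3. OLEO5 followed at 87.4 ± 8.95 and CLO1 at 60.7 ± 13.4, then OLEO3 at 6.54 ± 1.10, OLEO4 at 4.80 ± 0.0672 and RD20 at 2.27 ± 1.77. In dxo1 ABA the order of the first 4 was the same, at 161 ± 47.5, 79.4 ± 7.67, 12.6 ± 0.622 and 8.60 ± 1.17 CPM per kb. RD20 came next there, at 2.03 ± 0.576, above OLEO3 at 0.259 ± 0.157 and OLEO4 at 0.218 ± 0.0772. OLEO3 and OLEO4 did not differ beyond their spread in dxo1 ABA. Their order rests on the division by exon length. In CPM OLEO4 averaged more than OLEO3, at 6.65 against 5.01 in Col-0 ABA and 0.302 against 0.198 in dxo1 ABA. In total RNA OLEO2 stood above OLEO1, at 26.8 ± 8.34 against 11.2 ± 3.18 CPM per kb in Col-0 ABA and at 6.07 ± 0.976 against 2.90 ± 1.44 in dxo1 ABA.

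The genotypes were then compared. With ABA, 6 of the 7 genes were lower in dxo1 by GMUCT, where 30.7% of all genes tested were called in either direction. On the log2 scale OLEO1 stood at -3.05 ± 0.20 (adjusted p = 2.41e-09), OLEO2 at -3.08 ± 0.18 (adjusted p = 3.70e-10), OLEO5 at -2.80 ± 0.20 (adjusted p = 6.32e-09) and CLO1 at -2.82 ± 0.20 (adjusted p = 6.32e-09). As a ratio of scaled reads, dxo1 held 0.119 of the Col-0 level for OLEO1 (counting interval 0.114 to 0.124), 0.117 for OLEO2 (0.110 to 0.124), 0.144 for OLEO5 (0.122 to 0.168) and 0.141 for CLO1 (0.120 to 0.166). These 4 genes, whose levels in Col-0 ABA ran from 60.7 to 1326 CPM per kb, thus had ratios between 0.117 and 0.144. OLEO3 stood at -4.53 ± 0.66 (adjusted p = 4.25e-05) and OLEO4 at -4.38 ± 0.54 (adjusted p = 5.94e-06), each from at most 38 reads a library. RD20 stood at -0.12 ± 0.55 (adjusted p = 0.895), and at 0.15 with library size alone. The median over the 7 was -3.05, against 0.01 over all genes. OLEO3 and OLEO4 passed the filter on low counts through Col-0 ABA alone and could be called here as lower alone. The count and the median are thus a description and not support.

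Without ABA, 0 of the 7 genes were called between the genotypes with edgeR, 0 at an unadjusted p under 0.05 and 0 with DESeq2, while 20.5% of all genes tested were called. OLEO1 stood at -1.08 ± 0.56 (adjusted p = 0.184) and OLEO2 at 1.11 ± 0.71 (adjusted p = 0.294). With 1 to 10 reads of each in a library, a moderate difference was not detectable at this depth.

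The difference between the ABA responses was tested as the interaction of genotype and treatment, where 8.92% of genes tested were called in either direction. Of the 7 genes, 3 passed, all with the smaller response in dxo1. OLEO3 and OLEO4 passed the filter on low counts through Col-0 ABA alone and could be called here in that direction alone. The count is thus a description and not support. OLEO2 stood at -4.19 ± 0.72 (adjusted p = 0.000908), OLEO4 at -4.31 ± 1.08 (adjusted p = 0.0162) and OLEO5 at -3.01 ± 0.60 (adjusted p = 0.00303). OLEO1 stood at -1.97 ± 0.64 (adjusted p = 0.0619), OLEO3 at -4.57 ± 1.69 (adjusted p = 0.104), CLO1 at -1.82 ± 1.44 (adjusted p = 0.503) and RD20 at 0.64 ± 0.84 (adjusted p = 0.709). The interaction of each rests on few untreated reads. Without dxo1 NT GMUCT replicate 2 the call was left for 1 gene, OLEO2. OLEO4 lost its call without Col-0 NT replicate 1 (adjusted p = 0.0824), dxo1 NT replicate 1 (adjusted p = 0.101) or dxo1 NT replicate 2 (adjusted p = 0.0526), and OLEO5 without dxo1 NT replicate 2 (adjusted p = 0.126). OLEO1 gained a call without dxo1 ABA replicate 1 (adjusted p = 0.0111), with DESeq2 (-1.95, adjusted p = 0.0163) and without a filter on low counts (-1.97, adjusted p = 0.0103).

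**Figure D3:**
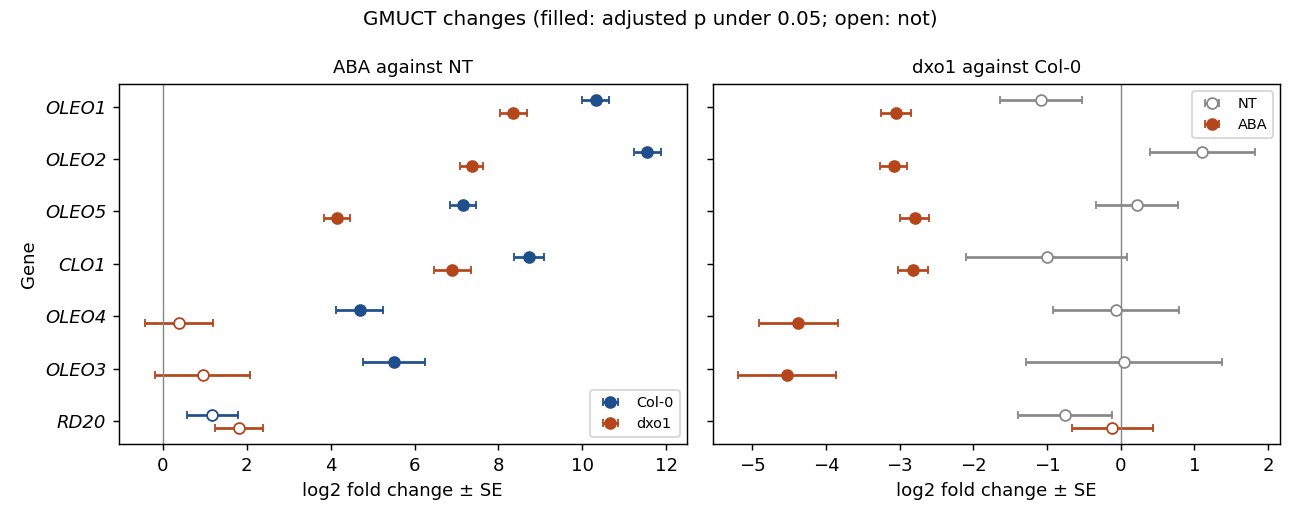
log2 fold changes of each gene in GMUCT with SE bars, for ABA against NT in each genotype (left) and dxo1 against Col-0 in each condition (right); filled points have an adjusted p under 0.05. OLEO1, OLEO2, OLEO5 and CLO1 lie between -3.08 and -2.80 for dxo1 against Col-0 with ABA, and RD20 lies at -0.12.

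Markers of the mature seed moved with these genes. A list of 12, storage proteins and early LEA proteins, summed to 5.47 and 5.68 CPM in Col-0 NT, 3473 and 3191 in Col-0 ABA, 2.41 and 1.74 in dxo1 NT and 431 and 432 in dxo1 ABA. The 7 oil-body genes summed to 3.21 and 3.01, 1954 and 2005, 2.81 and 2.07, and 277 and 206 CPM in the same order. Of the 9 seed markers tested, all rose with ABA in Col-0 and 8 in dxo1, and 7 were lower in dxo1 with ABA, where 26.7%, 7.68% and 30.7% of all genes were called. Some had next to no untreated reads, such as CRU2 and SESA1 with 0 and 2 over both Col-0 NT libraries. The filter on low counts thus partly set these counts, which are a description and not support. Without ABA, 3 of the 9 were lower in dxo1 (median -1.66), against 0 of the 7 oil-body genes (median -0.06) and 20.5% of all genes called in either direction. The oil-body genes had few untreated reads, so nothing is read from this contrast. In Col-0 ABA none of the 12 was at 0, and in dxo1 ABA 3 and 2 were. Their part in the oil-body result was not tested, and in bulk RNA fewer cells of a type and less RNA per cell cannot be told apart. Tapetal oleosins, 8 genes of the pollen coat, summed to 1.04 to 3.56 CPM over the 8 libraries, and 1 to 4 of them were at 0.

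Total RNA gave few reads. In all 4 NT libraries the 5 oleosins and CLO1 had 0 reads, and RD20 had 1 read in 1 of them. OLEO2 had 41 and 19 reads in Col-0 ABA and 11 and 7 in dxo1 ABA. OLEO1 had 11 and 12 reads in Col-0 ABA and 3 and 5 in dxo1 ABA. OLEO5 had 4 and 1 and then 8 and 2, and RD20 had 2 and 0 and then 4 and 1. OLEO4 and CLO1 had at most 1 read in a library, and OLEO3 had 0 in all 8. Treated libraries of OLEO1, OLEO2 and OLEO5 thus lay above untreated ones in both genotypes.

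Of the 7 genes, OLEO1 and OLEO2 passed the filter of 4965 genes in total RNA, each through treated libraries. Both had 0 reads in NT, so they could be called with ABA as rising alone. OLEO2 was at least 16.0-fold higher with ABA in Col-0 against a floor of 3 reads over the group (adjusted p = 0.00492), where 0.443% of genes were called, and the call was lost without Col-0 NT total RNA replicate 1 (adjusted p = 0.193) or Col-0 ABA total RNA replicate 1 (adjusted p = 0.122). In dxo1 it was at least 5.09-fold higher and did not pass (adjusted p = 0.0682), where 0.725% were called, but did pass without dxo1 ABA replicate 2 (adjusted p = 0.0394) and without a filter on low counts (adjusted p = 0.0062). OLEO1 was at least 6.14-fold higher in Col-0 (adjusted p = 0.174) and at least 2.26-fold in dxo1 (adjusted p = 0.382). Against Col-0, the dxo1 ABA level of OLEO1 stood at -1.93 ± 0.85 (adjusted p = 0.491) and of OLEO2 at -2.13 ± 0.48 (adjusted p = 0.192), where 0.0403% were called. Neither passed. The counting intervals of these ratios, 0.0995 to 0.596 for OLEO1 and 0.123 to 0.381 for OLEO2, lay below 1 and cover counting error only. OLEO2 passed without dxo1 ABA total RNA replicate 1 (adjusted p = 0.0307). OLEO5 went the other way in these few reads, with a dxo1 to Col-0 ratio of 1.48 and a counting interval of 0.461 to 5.52 that includes 1. In the interaction 0 of all genes tested were called with edgeR (0%) and 0 with DESeq2, though 293 had an unadjusted p under 0.05, none of them a member. Neither untreated group held reads of OLEO1 or OLEO2, so their interaction could not be called and nothing is read from it.

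In NAD libraries OLEO2, the member with most reads there, had 3 and 1 reads in Col-0 NT, 0 and 0 in dxo1 NT, 2 and 31 in Col-0 ABA and 26 and 9 in dxo1 ABA. OLEO1 had 1 and 5 reads in Col-0 ABA and 6 and 4 in dxo1 ABA, with 0 in NT. OLEO5 had 2 and 3 reads in Col-0 ABA and 4 and 1 in dxo1 ABA, and CLO1 had 0 and 1 and then 3 and 0. RD20 had 3 reads in 1 Col-0 NT library and 2 in 1 Col-0 ABA library, OLEO4 had at most 1 read and OLEO3 had 0 in all 8. Treated dxo1 libraries thus held more OLEO1, OLEO2 and OLEO5 reads than untreated ones, which held 0 of each. OLEO2 passed the filter of 3814 genes through treated libraries. From 0 reads in dxo1 NT, it could be called in dxo1 as rising alone. Its Col-0 change was 3.68 ± 0.88 (adjusted p = 0.0707), where 0.472% of genes were called, and passed with an adjusted p of 0.000753 without Col-0 ABA NAD replicate 1, the library that stood apart, whereas without replicate 2 it stood at 1.71 and did not pass. In dxo1 it was at least 11.7-fold higher (adjusted p = 0.0477), where 0.367% were called, and this was lost without either dxo1 NT NAD library (adjusted p = 0.291 without replicate 1 and 0.160 without replicate 2) or without dxo1 ABA NAD replicate 1 (adjusted p = 0.398). Between genotypes with ABA OLEO2 stood at -0.83 ± 0.64 (adjusted p = 0.697), where 0.157% were called, and the direction turned with library size alone (0.34) and without Col-0 ABA NAD replicate 2 (1.14). A capture without the enzyme step was not analysed here, so these reads include any RNA carried along unspecifically.

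**Figure D4:**
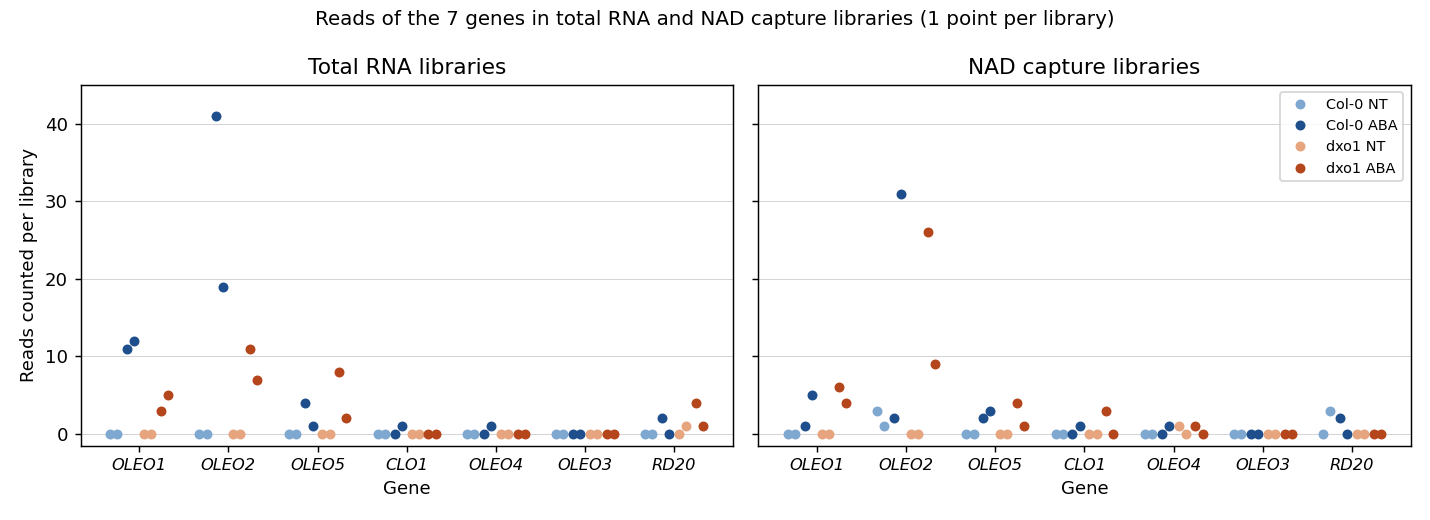
Reads per library of each gene in the total RNA and NAD capture libraries (linear axis); points are libraries coloured by group. OLEO2 has the most reads in both assays, up to 41 in total RNA and 31 in NAD, and untreated libraries hold at most 3 reads of any gene.

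The assays were set side by side within each condition. GMUCT over total RNA asks whether a gene has more uncapped and cleaved reads than its total RNA reads would give, relative to other genes. In Col-0 ABA, 4 of the 7 genes were called higher, where 30.0% of 17930 genes were called in either direction. OLEO1 stood at 4.51 ± 0.36 (adjusted p = 1.26e-13), CLO1 at 4.86 ± 0.81 (adjusted p = 7.26e-06), OLEO5 at 2.64 ± 0.55 (adjusted p = 2.00e-04) and OLEO2 at 2.20 ± 0.28 (adjusted p = 3.92e-08), with CLO1 resting on 1 total RNA read. OLEO4 stood at 1.53 ± 1.39 (adjusted p = 0.439), a value that passed at 3.64 with library size alone (adjusted p = 0.00253), and RD20 at -0.96 ± 1.43 (adjusted p = 0.656). In dxo1 ABA 3 were called, where 30.5% were called in either direction. OLEO1 stood at 3.40 ± 0.47 (adjusted p = 1.76e-07) and OLEO2 at 1.25 ± 0.39 (adjusted p = 0.0110), and CLO1 was called against 0 total RNA reads (adjusted p = 0.0174). OLEO5 stood at -0.74 ± 0.57 (adjusted p = 0.339), a direction that turned to 1.91 (adjusted p = 0.000532) with library size alone. That scaling moved the median of all genes by 2.15 in Col-0 ABA and 2.65 in dxo1 ABA, so the sizes are relative to the typical gene. Without dxo1 ABA total RNA replicate 2, 1 of the 3 dxo1 calls was left, as OLEO2 (adjusted p = 0.0633) and CLO1 (adjusted p = 0.0873) lost theirs, and CLO1 also without replicate 1 (adjusted p = 0.123). OLEO2 was also not called in a fit of those groups alone (adjusted p = 0.0502). OLEO3, OLEO4 and CLO1, with at most 1 total RNA read in a library, entered through GMUCT reads and could be called as higher alone. The counts of called genes are thus a description and not support. The change of this ratio with ABA was called for 0 members with edgeR in Col-0, where 0.625% of genes were called, and in dxo1, where 0.139% were, and 0 had an unadjusted p under 0.05. DESeq2 called 1 member in Col-0. Total RNA held 0 untreated reads of all members but RD20, which leaves the untreated end of that change without a base.

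The balance of OLEO1 and OLEO2 was then described in each assay, with no test. OLEO1 made up 62.6% to 69.2% of the OLEO1 and OLEO2 reads in the 4 ABA libraries of GMUCT. In the ABA libraries of total RNA it made up 21.2% to 41.7%, and in those of NAD capture 13.9% to 33.3%. The GMUCT libraries held 1947 to 10237 reads of the pair and the others 3 to 52, so the exact 95% intervals ran up to 72.3% in total RNA and 90.6% in NAD. The GMUCT range lay above the other 2, and the shares of the genotypes overlapped within each assay. This share compares reads within a library and does not depend on scaling between assays. For NAD over total RNA, OLEO2 stood at 0.23 ± 0.59 in Col-0 ABA (adjusted p = 0.866) and at 1.69 ± 0.65 in dxo1 ABA (adjusted p = 0.0961), where 2.92% and 11.4% of 5475 genes were called.

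**Figure D5:**
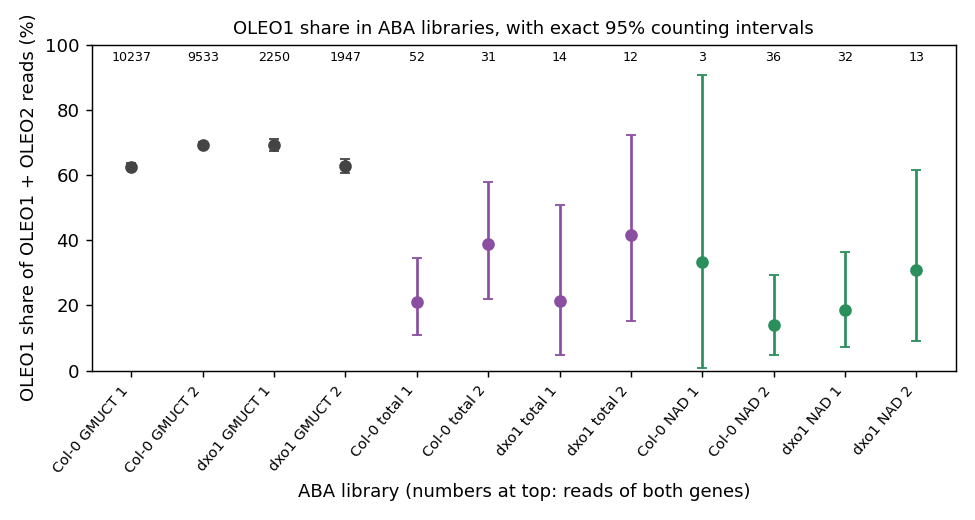
OLEO1 reads as a percent of OLEO1 plus OLEO2 reads in each ABA library, with exact 95% counting intervals; numbers at the top are the reads of both genes. The 4 GMUCT libraries sit at 62.6% to 69.2% and the 8 others at 13.9% to 41.7%.

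Other oil-body genes were counted from lists. Of 26 further coat and droplet proteins 19 were tested by GMUCT, and 11 rose and 0 fell with ABA in Col-0, 9 rose in dxo1, and 12 were lower and 1 higher in dxo1 with ABA. Over all genes tested, the shares called in either direction were 26.7%, 7.68% and 30.7% in these 3 comparisons. Their median log2 fold change was 0.77, 0.64 and -1.0, against -0.01, -0.03 and 0.01 over all genes. Some of the 19, such as AT1G48990 and AT1G05510, had 0 reads in Col-0 NT and could be called there as rising alone. The filter on low counts thus partly set these counts and medians, which are a description and not support. The seipin AT5G16460, a protein of droplet formation, rose by 10.05 ± 0.39 in Col-0 (adjusted p = 1.19e-13) and ATPXG2, a caleosin-type peroxygenase, by 8.89 ± 0.40 (adjusted p = 1.15e-12). The oleosin AT2G25890 rose by 8.12 ± 0.39 (adjusted p = 4.09e-12). In dxo1 these 3 rose by 7.17 ± 0.35, 5.58 ± 0.40 and 8.91 ± 0.49 (adjusted p = 8.04e-12, 4.68e-09 and 5.12e-11). Over both Col-0 NT libraries the 3 had 1, 2 and 4 reads, so the sizes of these rises are uncertain. The larger fold of AT2G25890 in dxo1 is not a higher level. It averaged 57.9 CPM in Col-0 ABA and 22.0 CPM in dxo1 ABA, against 0.198 and 0.0334 CPM in NT. With ABA, ATPXG2 stood at -2.60 ± 0.21 in dxo1 against Col-0 (adjusted p = 3.74e-08) and AT5G16460 at -1.63 ± 0.18 (adjusted p = 1.50e-06). The interaction was called for AT2G47780, a rubber elongation factor family protein, at -4.66 ± 1.15 (adjusted p = 0.0143) and for HSD5, a hydroxysteroid dehydrogenase, at -4.09 ± 1.15 (adjusted p = 0.0299). Both rest on few untreated reads, with 1 of AT2G47780 and 2 of HSD5 over both Col-0 NT libraries. Highest by mean level were DOX1, an alpha-dioxygenase (176 CPM), AT1G67360 (67.0 CPM) and the seipin AT1G29760 (40.1 CPM).

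Of 23 genes of triacylglycerol synthesis and its seed regulators 16 were tested. With ABA 6 rose and 1 fell in Col-0, 3 rose in dxo1, and 6 were lower and 2 higher in dxo1 with ABA, where 26.7%, 7.68% and 30.7% of all genes tested were called in either direction. The median log2 fold change of the list was 0.44, 0.24 and -0.16 in the same order, against -0.01, -0.03 and 0.01 over all genes. ABI5, a bZIP factor of the ABA response, rose by 3.98 ± 0.21 in Col-0 (adjusted p = 1.25e-11) and by 1.68 ± 0.19 in dxo1 (adjusted p = 4.58e-06). ABI3, a B3 factor of seed maturation, averaged 13.3 CPM in Col-0 ABA and 5.06 CPM in dxo1 ABA, from 0 reads in Col-0 NT. ABI4 averaged 15.6 and 0.774 CPM, also from 0 reads in Col-0 NT. ABI3 and ABI4 could thus be called in Col-0 as rising alone, and the counts of the list are a description and not support. In dxo1 against Col-0 with ABA, ABI5 stood at -1.99 ± 0.18 (adjusted p = 1.35e-07), ABI3 at -1.40 ± 0.30 (adjusted p = 0.00158) and ABI4, an AP2 factor of the ABA response, at -4.32 ± 0.42 (adjusted p = 7.39e-07). The interaction was called for ABI5 at -2.30 ± 0.28 (adjusted p = 3.36e-05) and for FAD3, a desaturase of linolenic acid synthesis, at -1.19 ± 0.22 (adjusted p = 0.00202). Without ABA the list had 2 genes higher and 2 lower in dxo1, where 20.5% of all genes were called, and nothing is read from that count. Among them were GPAT9, the first acyltransferase of the pathway, at 0.72 ± 0.17 (adjusted p = 0.00489) and DGAT3, an acyltransferase of its last step, at -0.61 ± 0.15 (adjusted p = 0.00732).

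All 11 genes of triacylglycerol breakdown and use were tested. With ABA 7 rose in Col-0 and 4 in dxo1, and 7 were lower and 1 higher in dxo1 with ABA, where 26.7%, 7.68% and 30.7% of all genes tested were called in either direction. The median of the list was 0.93, 0.37 and -1.07 on the log2 scale in the same order. ICL and MLS, isocitrate lyase and malate synthase of the glyoxylate cycle, rose by 9.42 ± 0.24 (adjusted p = 1.20e-15) and 7.54 ± 0.22 (adjusted p = 1.56e-15) in Col-0. In dxo1 they rose by 5.34 ± 0.20 (adjusted p = 2.25e-13) and 4.98 ± 0.20 (adjusted p = 3.72e-13). PCK1, the carboxykinase that follows them towards sugar, rose by 2.23 ± 0.16 in Col-0 (adjusted p = 2.89e-09) and by 0.65 ± 0.16 in dxo1 (adjusted p = 0.0115). With ABA, ICL stood at -3.61 ± 0.18 in dxo1 against Col-0 (adjusted p = 7.45e-11), MLS at -3.27 ± 0.17 (adjusted p = 1.68e-10) and MFP2, of fatty acid beta-oxidation, at -1.35 ± 0.15 (adjusted p = 1.78e-06). In the interaction 5 of the 11 were lower and 0 higher, where 8.92% of all genes were called, with ICL at -4.08 ± 0.25 (adjusted p = 2.08e-08) and MLS at -2.55 ± 0.25 (adjusted p = 2.37e-06). In total RNA ICL also rose with ABA in Col-0, by 7.10 ± 0.55 (adjusted p = 1.79e-05), and was lower in dxo1 with ABA, at -2.54 ± 0.37 (adjusted p = 0.0277). Without ABA, MLS stood at -0.72 ± 0.19 in dxo1 against Col-0 (adjusted p = 0.0105) and LACS6, a peroxisomal acyl-CoA synthetase, at 0.64 ± 0.19 (adjusted p = 0.020).

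Of 14670 genes of the GMUCT libraries compared, those with the pattern closest to the mean of the 7 members over 8 libraries were AT4G31830 (root mean square difference 0.286 on log2 CPM, r = 0.995) and the oleosin AT1G48990 (0.299, r = 0.995). Then came AT4G39130, a dehydrin (0.304, r = 0.997), AT1G07985 (0.310, r = 0.993) and AT5G59170, an extensin-like protein (0.314, r = 0.995). These r values describe likeness over libraries that share groups and carry no test. AT4G31830, AT1G48990 and AT4G39130 had no or nearly no untreated reads. Among the members, OLEO5 lay closest to the mean by root mean square difference (0.371), ahead of CLO1 (0.708), and RD20 farthest (2.18). By r, CLO1 followed the mean most closely (0.997) and RD20 least (0.712).

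The genes lie on TAIR10.1 chromosomes 2 to 5, and OLEO1 (chr4:12900430-12901577), OLEO2 (chr5:16173340-16174783), OLEO5 (chr3:221939-222827) and their opposite-strand neighbours overlap at their ends. The overlaps span 44 bases with AT4G25150, 15 bases with AT5G40410 and 51 bases with AT3G01560. These neighbours stood at 3.18 to 4.45 CPM, 0.661 to 1.40 CPM and 20.7 to 31.4 CPM across the GMUCT libraries. The strand mode of the counting is not given in the sources used here. The other members are OLEO3 (chr5:20820068-20820944), OLEO4 (chr3:10243244-10245023), CLO1 (chr4:13473516-13475371) and RD20 (chr2:14144831-14146555).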

How the data were processed

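Of 24 libraries, the deposited files hold counts, whole numbers of reads per gene, not normalized, per the submitters' processing notes made with cutadapt, STAR 2.4.2a and HTSeq on TAIR10 from 50 nt single-end reads. HTSeq summary rows, set aside here, took 27.3% to 40.2% of GMUCT, 82.4% to 96.1% of NAD and 93.4% to 97.8% of total RNA counts. Genes were tested in edgeR 4.0.16 under R 4.3.3 with filterByExpr (minimum count 10), TMM scaling and quasi-likelihood F tests adjusted by the Benjamini-Hochberg method over all genes tested, at 0.05. DESeq2 1.42.0 was an alternative. The SE of a fold change was taken from its size and its F value, which is approximate at low counts. Fits covered 5 sets of libraries and 27 comparisons. The same code recovered known changes of moderate size in simulated counts, for ABA in Col-0 within each assay and outside the lowest-level genes. That simulation did not cover untreated groups as near empty as those of the members, the interaction or the comparisons between assays. Against groups with 0 counts, folds are lower bounds that set the empty group to 3 counts in all. Intervals are exact at 95% and cover counting error only. Nothing in the labels says that replicates were separate cultures, so p-values measure the spread between libraries, which may be technical.

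The members and lists were chosen with earlier results of these data known. From each list, up to 4 genes per comparison with the smallest p among those that passed could be named, with the 3 of highest GMUCT level in the coat list; not all are printed. Genes of similar pattern were ranked over genes of at least 5 mean CPM. Gene symbols came from the TAIR10.1 annotation, which matched 28009 of 28775 identifiers (97.3%). Promoters and positions were read from the TAIR10.1 genome by identifier, since the files hold no coordinates. The promoter of OLEO2 is not reported here.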

Additional observations from a re-analysis of the deposited data

Results flagged for a closer look

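The ABA response in GMUCT differed between the genotypes, by the interaction test in edgeR, for 3 of the 7 genes, where 8.92% of all genes tested were called. The response in dxo1 minus that in Col-0 was -4.19 for OLEO2 (adjusted p = 0.000908), -4.31 for OLEO4 (adjusted p = 0.0162) and -3.01 for OLEO5 (adjusted p = 0.00303) on the log2 scale. The untreated groups held 4 and 13 reads of OLEO2, 5 and 7 of OLEO4 and 10 and 17 of OLEO5 in Col-0 and dxo1, so the untreated end of each difference rests on few reads. OLEO4 passed the filter on low counts through Col-0 ABA alone, with 38 and 34 reads there and at most 4 in each of the other 6 libraries. It could thus be called here with the smaller response in dxo1 alone, and the count of 3 genes is a description and not support. With 1 library left out, 1 to 4 members were called. OLEO4 lost its call in 3 of those fits and OLEO5 in 1, without dxo1 NT GMUCT replicate 2 (adjusted p = 0.126). DESeq2 called 4 members, OLEO1 included.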

How the results depend on the processing

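Apart from leaving out a library, the values of single genes kept their direction and side of the threshold in 358 of the recomputed cases, lost the call in 4, gained one in 10 and changed direction in 8. With 1 library left out these numbers were 226, 12, 5 and 15. No value called in the main analysis changed direction. Without a filter on low counts, 2 members were called for ABA in Col-0 total RNA (1 in the main analysis), 1 for ABA in dxo1 total RNA (0), 1 for dxo1 against Col-0 with ABA in total RNA (0) and 1 for ABA in Col-0 NAD (0). The 1 NAD call for ABA in dxo1 fell to 0 with library size alone, with a replicate block and with DESeq2. DESeq2 called 1 member for the ABA change of GMUCT over total RNA in Col-0 (0). With 1 library left out, called members ranged from 6 to 7 for ABA in Col-0 by GMUCT, 1 to 4 for the interaction, 0 to 1 in each of ABA in Col-0, ABA in dxo1 and dxo1 against Col-0 with ABA in total RNA and of both NAD treatments, and 1 to 3 for GMUCT over total RNA in dxo1 ABA. Over all genes, leaving out 1 Col-0 NT library lowered the GMUCT calls from 5250 to 2963 or 3132 for ABA in Col-0, from 4018 to 1683 or 1359 for the genotypes without ABA, and from 1753 to 832 or 813 for the interaction. Leaving out dxo1 NT replicate 2 lowered the genotype count without ABA to 2337.

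Directions of values not called in the main analysis turned with library size alone for OLEO4 between genotypes in NT (0.084), RD20 between genotypes with ABA (0.15), OLEO2 between genotypes with ABA in NAD (0.34), RD20 for GMUCT over total RNA in Col-0 ABA (1.18), dxo1 NT (0.80) and dxo1 ABA (0.66), OLEO5 in dxo1 ABA (1.91) and OLEO2 for NAD over total RNA in Col-0 ABA (-0.70). With 1 library left out, values ranged from -0.043 to 0.66 for OLEO4 with ABA in dxo1. Between genotypes in NT they ranged from -0.73 to 3.16 for OLEO3, -0.49 to 0.40 for OLEO4 and -0.53 to 0.75 for OLEO5. Between genotypes with ABA they ranged from -0.77 to 1.02 for RD20 and, in NAD, from -1.62 to 1.14 for OLEO2. For GMUCT over total RNA they ranged from -1.71 to 6.69 for RD20 in Col-0 ABA, -2.80 to 4.78 for RD20 in dxo1 NT and -1.22 to 0.47 for OLEO5 in dxo1 ABA, and for NAD over total RNA from -1.79 to 0.77 for OLEO2 in Col-0 ABA. The cause was not tested. Library size alone moved the median log2 fold change of all genes by 0.27 between genotypes with ABA in GMUCT, by -0.13 for ABA in Col-0, and in NAD by -0.84 for ABA in Col-0 and 1.48 between genotypes with ABA.

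Replicate numbers were not taken to pair the libraries, since not every pair correlated above 0.1; in total RNA 3 of 6 pairs did. Deviations of same-numbered libraries from their group means correlated across genes at -0.05 to 0.12 in GMUCT, 0.02 to 0.27 in total RNA and -0.06 to 0.05 in NAD. A replicate block raised the called members for ABA in dxo1 total RNA from 0 to 1 (OLEO2, adjusted p = 0.0258), lowered the NAD count above and left the other counts of called members as they were. Depth limits the total RNA and NAD comparisons most, since most members had fewer than 10 reads a library there.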
